A study of Mus musculus with 12 samples.

Results

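The genes described here are the developmental transcription factors of 12 families: the 4 Hox clusters (Hoxa, Hoxb, Hoxc and Hoxd), Pax, Lhx, Tbx, the sine oculis homologues (such as Six3 and Six4), Irx, Dlx, Gata and Nkx. They were chosen by symbol alone, with no use of a measured value, as autosomal protein-coding RefSeq genes named by a family and a number (Nkx by a pair of numbers). This gave 105 of 20665 autosomal protein-coding genes, of which 39 were Hox genes and 66 belonged to the other families. Most of these families encode homeodomain proteins. The T-box (Tbx), zinc-finger (Gata) and Pax families carry other DNA-binding domains, in some Pax proteins beside a homeodomain. All 12 families act as patterning or identity factors of the embryo.

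In many cell types these genes lie in CpG-rich domains that are bound by Polycomb complexes and marked by trimethylation of lysine 27 of histone H3, and in male germ cells many of them are known to carry this mark together with trimethylation of lysine 4. During spermiogenesis, the haploid phase in which round spermatids become sperm, most histones are replaced by transition proteins and then protamines. MNase, micrococcal nuclease, cuts the DNA between nucleosomes first, so that sequenced fragments of nucleosome length mark protected DNA; the amount of enzyme decides which nucleosomes are released and which are digested away.

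The study compared round spermatids (RS) with a meiotic fraction (M) from testes of adult male SV129 mice aged 8 to 12 weeks, with no other genotype or drug. The cells were sorted by STAPUT, a sedimentation of dissociated testis cells through a gradient by size, from 11 pooled mice for each collection and to a stated purity of at least 85%. Each fraction was digested with 0.5, 1 or 2 U of MNase for 7.5 min at 37 °C, with 2 samples for each of the 6 combinations. The RS digests held 2 times as many cells as the M digests, so equal amounts of enzyme were not equal amounts per cell. The labels name the M stage a meiotic spermatid, while the protocol describes cells in meiosis, and it is called M here.

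The authors deposited 1 list of nucleosome calls for each combination, made from both samples, so there was no replicate error and no test between stages was possible. The lists held 179133, 41655 and 27101 calls in RS at 0.5, 1 and 2 U, and 42178, 60077 and 65614 calls in M. Every call spanned 140 bp and came with a p-value, whose steps matched Poisson tails that start at 6 reads; 65.4% to 69.5% of the calls of a list lay at this minimum, and the number of sequenced reads is unknown. A call was assigned to a gene when its midpoint lay in the gene or within 1000 bp of either end. Relative density is the number of calls in the merged span of a gene set over the number that the calls per bp of all 20665 genes would give in that span, so that differences in list size cancel. The matched Poisson tails had means of 0.70, 0.47 and 0.41 reads in RS at 0.5, 1 and 2 U. In M the means were 0.43, 0.48 and 0.51 reads. The minimum of 6 reads was the same in all lists, and relative density does not adjust for these unlike means. All intervals are 95% intervals for counting error only, and overlapping calls make them too narrow. Nucleosome calls do not show expression and so could not check the identity of the sorted cells.

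The sequence at the sole call that lay over a promoter in the RefSeq table of promoters is shown first, because no other promoter of these genes in that table had one. RefSeq (GRCm38.p6) promoter sequences, from 250 bases before to 50 bases after a transcription start, were at hand for 68 of the 105 genes. The call belonged to Hoxd10, a posterior Hox gene of limb and spinal cord, in the M list at 2 U, and it spanned 140 bp with 6 implied reads at an annotated start inside the gene's span. In the sequence of chr2:74691641-74691920 (plus strand) the capitals mark the called interval, chr2:74691777-74691916, which holds 114 bases before the first transcribed base (74691891) and 26 bases from it.
Hoxd10: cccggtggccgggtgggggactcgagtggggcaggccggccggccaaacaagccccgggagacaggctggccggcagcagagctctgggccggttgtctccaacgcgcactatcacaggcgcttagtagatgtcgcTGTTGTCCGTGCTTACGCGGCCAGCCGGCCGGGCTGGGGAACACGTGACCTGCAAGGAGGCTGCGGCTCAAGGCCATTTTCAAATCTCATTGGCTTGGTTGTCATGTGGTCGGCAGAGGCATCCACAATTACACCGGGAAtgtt
The full promoter of 300 bases, of which 280 are printed, had a GC content of 62.7% and 22 CpG dinucleotides, more than 67.6% of all promoters. The called interval held 9 of these CpGs at a GC content of 58.6%. This promoter contains CCAAT, on the strand that is not printed, and TATAAA on neither strand.

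For comparison, the 250 bases upstream of starts of 3 other genes with calls in the gene or within 1000 bp of it, but none over the promoter, are given, with each CpG in capitals. Hoxa10 is a posterior Hox gene of the reproductive tract (chr6:52240855-52241104, minus strand, 7 CpGs, 51.6% GC), Pax2 is a regulator of kidney and eye (chr19:44746351-44746600, plus strand, 5 CpGs, 52.8% GC) and Lhx4 is a regulator of the pituitary (chr1:155742028-155742277, minus strand, 14 CpGs, 66.0% GC).
Hoxa10: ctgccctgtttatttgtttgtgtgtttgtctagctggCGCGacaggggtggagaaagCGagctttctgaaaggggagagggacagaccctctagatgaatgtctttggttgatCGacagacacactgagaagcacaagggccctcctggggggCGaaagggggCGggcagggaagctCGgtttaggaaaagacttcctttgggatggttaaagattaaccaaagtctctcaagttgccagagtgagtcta
Pax2: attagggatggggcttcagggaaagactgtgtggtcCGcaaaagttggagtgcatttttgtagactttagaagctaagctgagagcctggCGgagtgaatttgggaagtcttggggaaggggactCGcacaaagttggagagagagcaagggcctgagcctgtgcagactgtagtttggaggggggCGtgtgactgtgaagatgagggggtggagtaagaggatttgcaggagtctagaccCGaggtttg
Lhx4: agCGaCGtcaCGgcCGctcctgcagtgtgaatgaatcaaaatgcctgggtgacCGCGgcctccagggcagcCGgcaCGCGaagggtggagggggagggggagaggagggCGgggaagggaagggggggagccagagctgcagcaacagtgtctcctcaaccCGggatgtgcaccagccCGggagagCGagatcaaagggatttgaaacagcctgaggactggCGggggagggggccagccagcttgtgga
Over all 80 promoters of the 68 genes, the median GC content was 60.7% with 17 CpGs in 300 bases, against 57.0% and 14 CpGs for 20085 promoters of 16457 genes. The word TATAAA (both strands) was in 10% of the promoters of these genes and in 12.7% of all promoters, and CCAAT (both strands) in 45.0% and 38.1%.

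By their values alone, the 12 families held fewer calls than their span predicts at the low amount of MNase in both stages. At the high amount they held a number close to or above the prediction. Their merged span of 2.01 Mb held 243 calls, 160 in RS and 83 in M. In RS, 105, 29 and 26 calls were found at 0.5, 1 and 2 U, against 126.6, 29.7 and 19.2 expected, giving relative densities of 0.83 (0.68 to 1.00), 0.98 (0.65 to 1.40) and 1.35 (0.88 to 1.98). In M, 11, 27 and 45 calls were found against 23.4, 37.7 and 45.0 expected, giving 0.47 (0.23 to 0.84), 0.72 (0.47 to 1.04) and 1.00 (0.73 to 1.34). The order of the 3 amounts was thus the same in both stages, although with calls above the minimum of implied reads only the M values were 0.26, 1.01 and 0.69. The M list at 0.5 U had the lowest value of the 6, with an interval that did not reach 1. The interval of this M value included 1 with overlapping calls merged, 0.54 (0.23 to 1.06), and reached it against reference genes in the length range of the families, 0.56 (0.28 to 1.00). The interval of the RS value at 0.5 U reached 1 in the main setting. It included 1 with overlapping calls merged, at a value of 0.80, and against reference genes in that length range, at 0.91.

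From 0.5 to 2 U the relative density differed by 0.69 in RS (0.08 to 1.31) and by 1.05 in M (0.12 to 1.99), both as a log2 ratio. Against reference genes in the length range of the families these were 0.41 (−0.20 to 1.03) in RS and 0.84 (−0.09 to 1.78) in M, and with overlapping calls merged 0.87 (0.12 to 1.61) in RS and 1.00 (−0.09 to 2.09) in M, so that 3 of these 4 intervals included 0. At equal MNase, RS stood above M at 3 of 3 amounts, with log2 ratios of 0.79 (−0.09 to 1.66), 0.44 (−0.31 to 1.19) and 0.42 (−0.27 to 1.12) at 0.5, 1 and 2 U. With calls above the minimum of implied reads only, the ratio at 1 U was −0.24 (−1.57 to 1.09), so that RS was then higher at 2 of 3 amounts. Each of the intervals at single amounts included 0, while that of their mean, 0.55, ran from 0.10 to 1.00. With overlapping calls merged into single positions, 105 positions in RS and 58 in M, the mean was 0.48 and its interval included 0 (−0.05 to 1.01). Without the Gata family it was 0.34 (−0.12 to 0.80), and without Gata4 alone 0.39 (−0.07 to 0.85). Setting RS against M at the same amount of MNase per cell gave a log2 ratio of 1.02 (0.04 to 2.00) when RS digested with 1 U was set over M digested with 0.5 U. The ratio was 0.90 (0.13 to 1.67) when RS with 2 U was set over M with 1 U. With overlapping calls merged these 2 ratios were 0.93 (−0.22 to 2.09) and 0.96 (0.03 to 1.89), so the interval of the first then included 0.

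**Figure D1:**
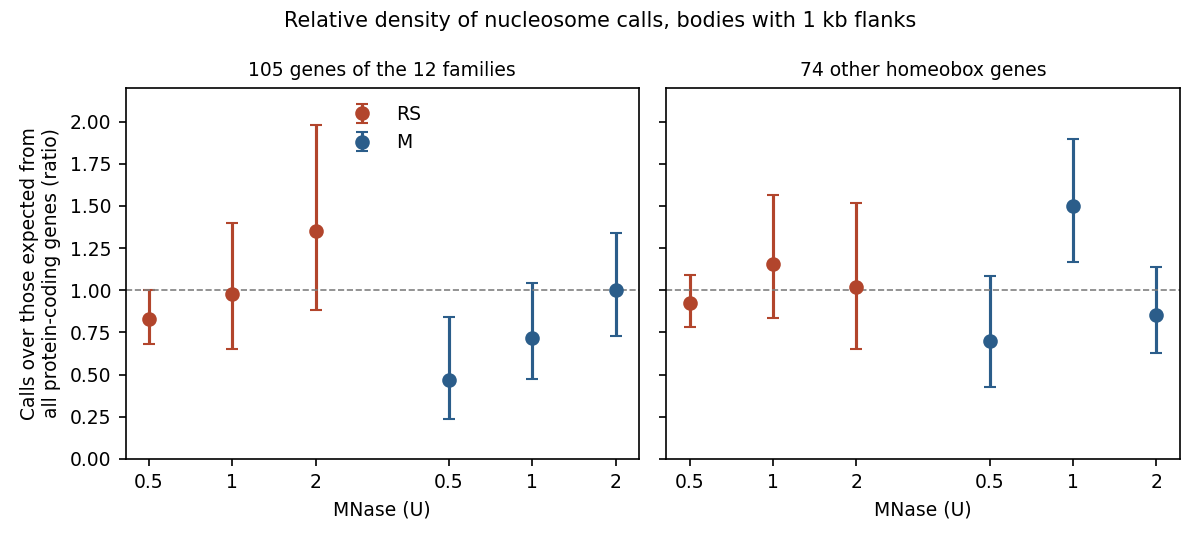
Relative density (observed over expected calls, ratio) of the 105 genes on the left and of 74 other homeobox genes on the right, by MNase amount (U), RS in red left of M in blue. Points are the values and bars the 95% counting intervals; the 105 genes run from 0.83 to 1.35 in RS and from 0.47 to 1.00 in M as MNase increases, and the other homeobox genes show no such order.

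The other homeobox genes, a list of 74 that shares no gene with the 12 families, had relative densities of 0.92, 1.16 and 1.02 in RS and 0.70, 1.5 and 0.86 in M at 0.5, 1 and 2 U. Their mean log2 ratio of RS over M was 0.09 (−0.28 to 0.46), and whether this differs from the 0.55 of the 12 families was not tested. Among 24 developmental signalling genes (ligands of the Wnt, Hedgehog, Fgf and Tgf-beta families and the antagonists Nog and Chrd), 22 calls in RS and 30 in M gave a mean of −1.81 (−3.33 to −0.30), the opposite direction. For 28 genes of Polycomb subunits, the proteins that repress many of these loci, 81 calls in RS and 47 in M gave 0.35 (−0.22 to 0.92).

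Per gene, the calls were sparse and uneven. At least 1 call was found in RS at 0.5, 1 and 2 U for 34, 15 and 16 of the 105 genes (32.4%, 14.3% and 15.2%), against 50%, 23.3% and 17.7% of all genes. In M these numbers were 8, 12 and 22 genes (7.62%, 11.4% and 21.0%), against 15.3%, 23.8% and 28.9% of all genes. The families' genes are short, with a median of 6325 bp against 17491 bp for all genes, and shares at matched length were not compared.

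Over all lists, 48 genes (45.7%, against 33.5% of all genes) had no call, 28 (26.7% against 24.4%) had calls in RS lists only, 10 (9.52% against 8.77%) in M lists only, and 19 (18.1% against 33.2%) in both stages. The mean rate per 100000 calls of a list was higher in RS for 38 genes (36.2%, against 40.4% of all genes) and higher in M for 19 (18.1%, against 26%). Among genes with a call this is 66.7% higher in RS for the families and 60.8% for all genes, so the direction of single genes lay near the background. At single amounts, the rate was higher in RS for 29, 13 and 15 genes at 0.5, 1 and 2 U (27.6%, 12.4% and 14.3%, against 41.8%, 18.2% and 14% of all genes). It was higher in M for 6, 11 and 15 genes (5.71%, 10.5% and 14.3%, against 10.5%, 16.9% and 21.9% of all genes).

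Calls in all 3 lists of a stage were rare. They were found in RS for 3 genes, Gata4, Lhx4 and Pax2 (2.86%, against 8.73% of all genes), and in M for 3 genes, Pax8, Tbx15 and Tbx18 (2.86%, against 8.01%). The rate was higher in RS at all 3 amounts for Gata4 and Lhx4 (1.90%, against 2.98% of all genes), and higher in M at all 3 amounts for Tbx18 (0.952%, against 1.85%). Calls in 4 or more lists were found for 8 genes (7.62%, against 14.6%). No gene of the families had a call in all 6 lists, as 4.81% of all genes had, and 34 of them (32.4%, against 26.3% of all genes) had calls in 1 list only.

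The 48 genes without a call comprised 23 Hox genes, 21 genes of the Nkx, Irx and sine oculis families, and 4 others, Dlx4, Dlx6, Tbx1 and Tbx10. Nkx genes specify organs such as thyroid, lung, heart and pancreas, Irx genes pattern heart and nervous system, and the sine oculis genes act in eye, muscle and kidney. Those without a call included Nkx2-1, a factor of thyroid and lung, Nkx2-5, a factor of the heart, Six3, a factor of the forebrain, and Irx3. The genes without a call were short, with a median of 3.91 kb and a longest of 18.9 kb, against a median of 14.2 kb for the 57 genes with a call. At this depth the lack of a call is not evidence that nucleosomes are absent. At the other extreme, the 10 genes with most calls held 131 of the 244 pairs of gene and call, 53.7%. They include long genes such as Tbx15 (113.9 kb) and Pax2 (91.7 kb). Length was not taken into account, and the like share among all genes was not computed.

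**Figure D2:**
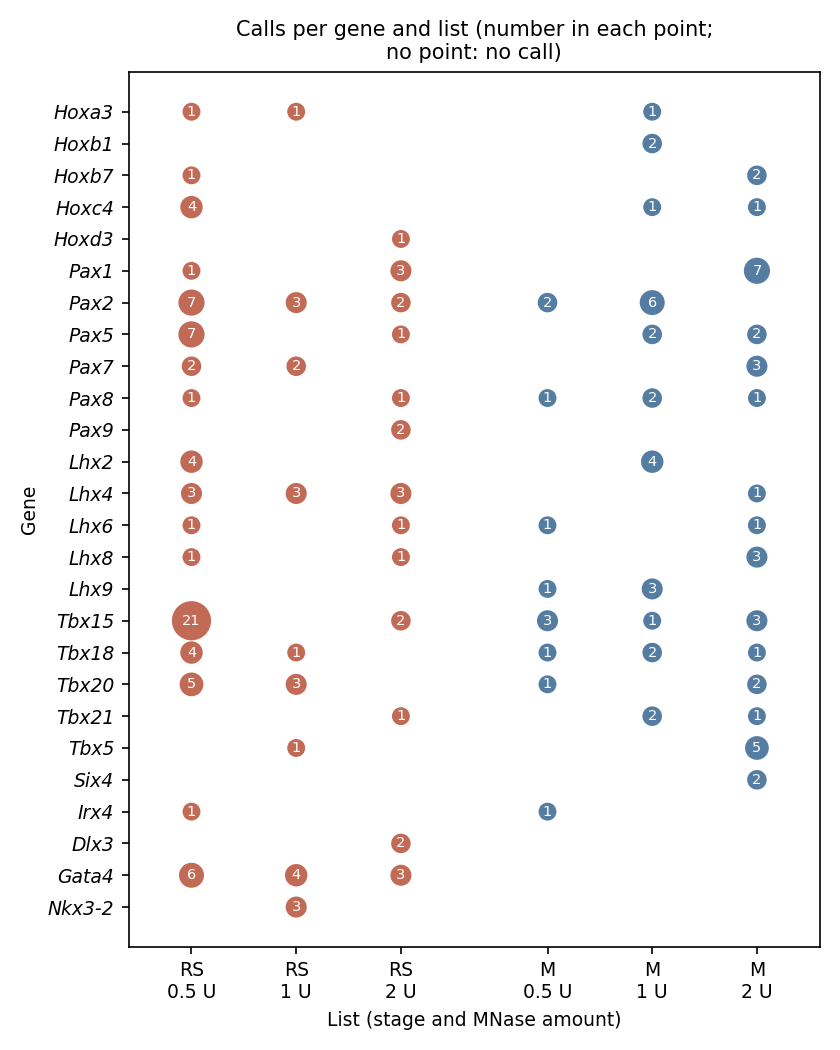
Calls per gene (rows) and list (columns, stage and MNase amount in U) for genes named by rule, RS in red left of M in blue, with the number of calls in each point and no point where there was none. Tbx15 has the most, 21 calls in RS at 0.5 U, and Gata4 has calls in all 3 RS lists and in no M list.

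The Gata factors, zinc-finger proteins that bind GATA motifs in blood, heart and gonad, stood furthest apart between the stages. All 5 genes had a call, 15, 4 and 4 calls in RS at 0.5, 1 and 2 U and 0, 0 and 1 in M. Relative densities in RS were 1.40, 1.59 and 2.46, and in M 0, 0 and 0.26. RS was higher at 3 of 3 amounts, and the mean log2 ratio was 2.95 (0.80 to 5.09), the sole interval among the 12 families that did not include 0. No allowance was made for looking at 12 families. With 0 calls in M at 0.5 and 1 U, the ratio depends on the 0.5 added to counts. Gata4 held 13 of the 23 calls in RS, and the family's ratio without it was not computed. As single positions, 16 in RS and 1 in M, it was 2.40 (0.20 to 4.59).

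Gata4 (chr14:63198914-63271712, 72.8 kb), a regulator of heart and gonad that Sertoli cells, the somatic nurse cells of the testis, express, had 6, 4 and 3 calls in RS at 0.5, 1 and 2 U, and 0, 0 and 0 in M. These were 8 positions spread over the gene, and no position came back at another amount. Gata3, a factor of T cells and kidney, had 6 calls in RS at 0.5 U and 1 in M at 2 U. Gata2, a factor of blood stem cells, had 1 call each in RS at 0.5 and 2 U and none in M. Over 7 Sertoli marker genes, a list that includes Gata4, 22, 6 and 4 calls were found in RS at 0.5, 1 and 2 U. In M there were 13, 13 and 2. The log2 ratios of RS over M at these amounts were −1.57, −0.74 and 1.97. The interval at 0.5 U lay under 0, and those at 1 and 2 U included it. The mean of −0.11 (−1.04 to 0.81) thus joins opposite directions. Relative densities were 0.93, 1.08 and 1.11 in RS and 2.98, 1.85 and 0.24 in M. The interval lay above 1 in M at 0.5 U and under 1 in M at 2 U, and the others included 1. Calls over these markers do not measure how many Sertoli cells a fraction held, and their part in the Gata4 values was not tested.

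The T-box genes, whose products pattern heart, limb and skin, held 44 calls in RS and 22 in M over 12 genes, 10 of which had a call. Tbx15 (chr3:99240348-99354260, 113.9 kb), a factor of skeleton and skin, had 21, 0 and 2 calls in RS at 0.5, 1 and 2 U and 3, 1 and 3 in M. Merged, these were 12, 0 and 2 positions in RS and 1, 1 and 3 in M, so the RS list at 0.5 U held most of the calls and the list at 1 U none. Tbx20, a factor of heart muscle, had 5, 3 and 0 calls in RS and 1, 0 and 2 in M. Tbx18, a factor of the sinoatrial node, had 4, 1 and 0 calls in RS and 1, 2 and 1 in M. Tbx5, a factor of heart and forelimb, was at the other end, with 0, 1 and 0 calls in RS and 0, 0 and 5 in M, the M calls at 3 positions. Tbx21, a factor of T helper cells, had 0, 0 and 1 calls in RS and 0, 2 and 1 in M. The family's mean log2 ratio of RS over M was 0.21 (−0.66 to 1.09).

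The Pax genes held 42 calls in RS and 26 in M, and all 9 had at least 1, with a mean log2 ratio of 0.27 (−0.56 to 1.09). Pax2 (chr19:44746601-44838269, 91.7 kb) had 7, 3 and 2 calls in RS at 0.5, 1 and 2 U and 2, 6 and 0 in M, the most calls per 100000 of its family. Pax5, a factor of B cells and with 186 kb a long gene, had 7, 0 and 1 calls in RS and 0, 2 and 2 in M. Both genes had calls in each stage with no common order across the amounts. Pax1, a factor of the vertebral column, had 1, 0 and 3 calls in RS and 0, 0 and 7 in M, all M calls at 2 U and at 4 positions. Its relative Pax9, a factor of teeth and vertebrae, had 0, 0 and 2 calls in RS and none in M. Pax7, a factor of muscle satellite cells, had 2, 2 and 0 calls in RS and 0, 0 and 3 in M. Pax8, a factor of thyroid and kidney, had 1, 0 and 1 calls in RS and 1, 2 and 1 in M.

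The LIM-homeodomain (Lhx) genes, factors of neuron identity and pituitary, had 17 calls in RS and 19 in M, with all 8 genes called and a mean log2 ratio of −0.33 (−1.36 to 0.71). Their relative densities were 0.73, 1.03 and 2.65 in RS and 0.87, 1.90 and 2.27 in M at 0.5, 1 and 2 U, and the interval of the M value at 2 U, 1.09 to 4.17, lay above 1. With overlapping calls merged that value was 2.47 and its interval included 1 (0.99 to 5.08). Genes of this family stood at both ends of the order. Lhx4 (chr1:155698031-155751726, 53.7 kb) had 3, 3 and 3 calls in RS and 0, 0 and 1 in M. These were 4 positions in RS, and the 3 calls at 1 U overlapped each other from 155742287 to 155742466, upstream of the sequence printed above. Lhx9, a factor needed for the gonad to form, had no call in RS and 1, 3 and 0 in M at 4 positions. Lhx2, a factor of forebrain and eye, had 4, 0 and 0 calls in RS and 0, 4 and 0 in M, which is 2 positions in each stage. Lhx6, a factor of cortical interneurons, had 1, 0 and 1 calls in RS and 1, 0 and 1 in M, and Lhx8, a factor of cholinergic neurons and oocytes, had 1, 0 and 1 in RS and 0, 0 and 3 in M.

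The remaining families without a cluster held few calls. The 14 Nkx genes had 6 calls in RS and 0 in M, at 2 genes; Nkx3-2, a factor of the axial skeleton, had 0, 3 and 0 in RS, which overlap at 1 position outside the gene. The 6 Dlx genes, factors of jaw and forebrain, had 3 calls in each stage, with 0, 0 and 2 in RS for Dlx3, a factor of hair, tooth and bone. The 6 sine oculis genes had 2 calls in each stage, both M calls in Six4 at 2 U and at 1 position. The 6 Irx genes had 1 call in each stage, both in Irx4, a factor of the heart ventricle, at 0.5 U. With such numbers the stages cannot be told apart in these families.

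**Figure D3:**
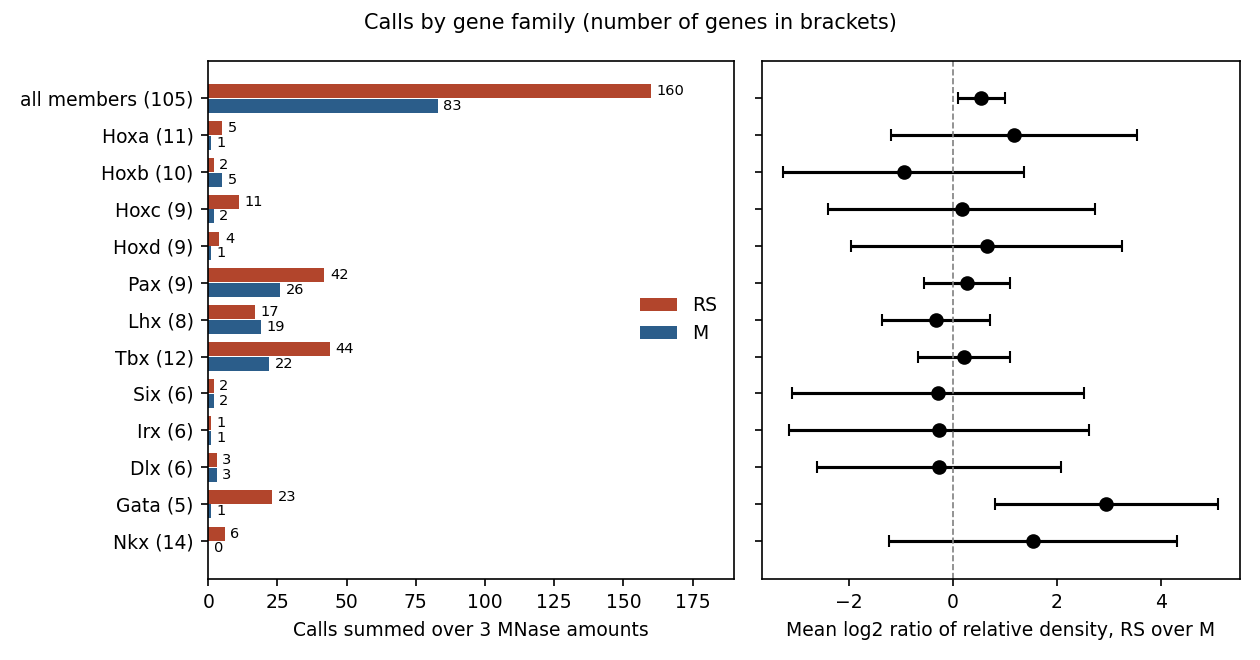
Calls summed over the 3 MNase amounts for each family on the left (RS in red above M in blue), and the mean log2 ratio of relative density, RS over M, with its 95% counting interval on the right. Gata, with 23 calls in RS and 1 in M, is the family whose interval lies above 0; the other 11 include it.

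The 39 Hox genes, which set position along the body axis and lie in 4 compact clusters, had 22 calls in RS and 9 in M. Their relative densities were 0.75, 0.80 and 0.62 in RS at 0.5, 1 and 2 U and 0, 0.63 and 0.66 in M, for a mean log2 ratio of 1.01 (−0.64 to 2.67). Hoxa had 5 calls in RS and 1 in M, Hoxb 2 in RS and 5 in M, Hoxc 11 in RS and 2 in M, and Hoxd 4 in RS and 1 in M. All 11 Hoxc calls in RS came from the list at 0.5 U, where they were 2.17 times the expected number (1.09 to 3.89). Merged to 6 positions they were 1.80 times the expected number, with an interval that included 1 (0.66 to 3.92). The 4 calls of Hoxc4 lay in the gene, while the 3 of Hoxc10, the 2 of Hoxc6 and the 2 of Hoxc8 lay within 1000 bp outside it.

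Among single Hox genes, the anterior gene Hoxb1, a factor of the hindbrain, had none in RS and 0, 2 and 0 in M. Hoxa3, a factor of the pharyngeal arches, had 1, 1 and 0 calls in RS and 0, 1 and 0 in M. Hoxc4 had 4, 0 and 0 calls in RS and 0, 1 and 1 in M, and Hoxd3 had 0, 0 and 1 in RS and none in M. No Hox gene had more than 4 calls in a list, so that none of them could be ordered by stage.

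As whole intervals, genes and the DNA between them, the 4 clusters span 492 kb, among them Hoxb chr11:96194316-96368254, Hoxc chr15:102921131-103036856 and Hoxd chr2:74668225-74765142. They held 33, 4 and 2 calls in RS at 0.5, 1 and 2 U, which is 0.92 (0.63 to 1.29), 0.50 (0.14 to 1.27) and 0.39 (0.05 to 1.42) times the autosomal mean per bp. In M they held 1, 6 and 14 calls, 0.12 (0.003 to 0.69), 0.51 (0.19 to 1.12) and 1.1 (0.60 to 1.84) times the mean. The values of the 2 stages ran in opposite orders over the amounts, while the intervals within RS overlapped. In flanks as long as the cluster on each side, the densities were 0.82, 1.12 and 1.08 in RS and 0.31, 0.69 and 0.86 in M, so the low M value at 0.5 U was shared with the DNA around the clusters.

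Calls were scarce at the starts of the genes, where a first nucleosome lies downstream of many promoters. For the 68 genes with a known strand, the windows of 1000 bp on each side of the outermost start, which is the 5′ end of the gene in the gene table, held 5 calls, against 26.9 expected from the same windows of 16457 genes, a relative density of 0.19 (0.06 to 0.43). RS had 3 calls against 14.5 expected, 0.21 (0.04 to 0.60), and M had 2 against 12.4, 0.16 (0.02 to 0.58). The gene interiors held 140 calls against 142.4 expected, 0.98 (0.83 to 1.16), and the windows at the gene ends 20 against 19.7, 1.01 (0.62 to 1.56). Among these zones the low value was thus at the starts and neither in the interiors nor at the ends. It also reached upstream in RS. From −5000 to −1000 bp, bins of 1000 bp had 0.15, 0.59, 0 and 0.44 times the autosomal mean per bp. All genes had 0.95, 0.98, 0.93 and 0.91. In M the bins had 0.44, 0, 0 and 0.89, against 0.79, 0.87, 0.78 and 0.73 for all genes. None of these bins of the 68 genes held more than 4 calls. From 3000 to 4000 bp downstream RS had 16 calls, 2.36 (1.35 to 3.83) times the mean. With overlapping calls merged, the starts had 4 positions against 16.5 expected, 0.24 (0.07 to 0.62).

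**Figure D4:**
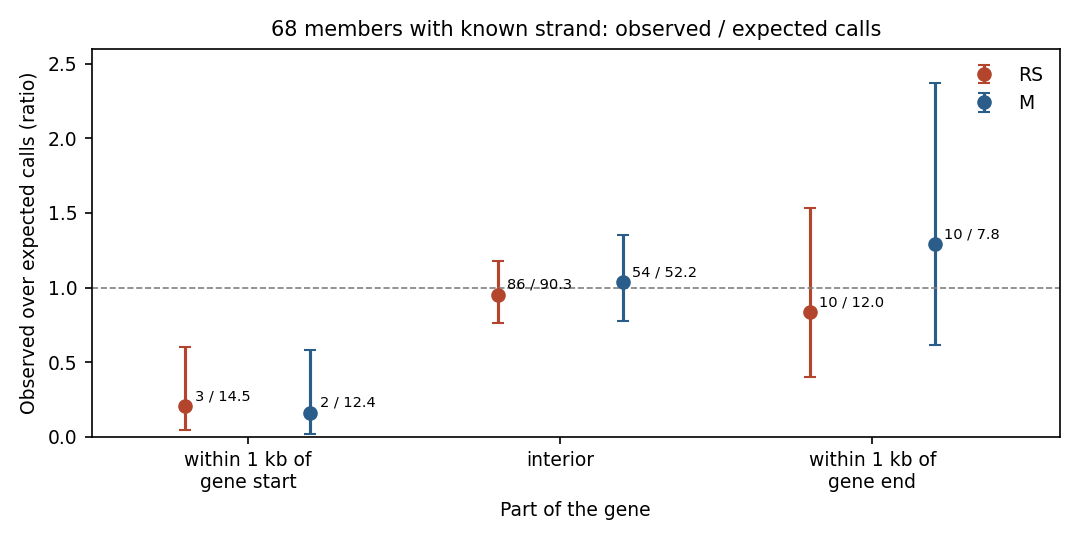
Observed over expected calls (ratio) in 3 zones of the 68 genes with known strand, RS in red left of M in blue, with 95% counting intervals and the observed and expected numbers beside each point. At the starts the points are 0.21 in RS and 0.16 in M, and the interiors and ends lie near 1.

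The 5 calls lay at Hoxd8 (2 overlapping calls, with midpoints at −789 and −759 bp from the start) and at Tbx18 (−701 bp) in RS at 0.5 U, at Lhx6 (46 bp downstream) in M at 0.5 U and at Pax1 (776 bp downstream) in M at 2 U. Within 500 bp of the start, 1 call remained against 16.9 expected, 0.06 (0.001 to 0.33), and within 2000 bp 20 against 47.0, 0.43 (0.26 to 0.66). When every start of the RefSeq promoter table was used in place of the outermost, 11 calls stood against 29.7 expected, 0.37 (0.19 to 0.66), with 9 against 16.2 in RS, 0.56 (0.25 to 1.05), and 2 against 13.5 in M, 0.15 (0.02 to 0.54). The value for all lists was thus higher than at the outermost starts, and the RS interval included 1. The Pax1 call in M at 2 U was not within 1000 bp of a start of that table, and the call of Lhx6 lay at −538 bp from one. The added calls were the 3 of Lhx4 in RS at 1 U (−369 to −329 bp), 3 of Pax1 in RS at 2 U, and that of Hoxd10 in M at 2 U (−45 bp). A promoter with a call over it was found in 1 of 68 genes (1.47%), against 1415 of 16457 genes (8.60%).

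Promoter CpG content moves with calls at starts among all genes: relative to all starts, those of low, middle and high CpG content had 1.21, 1.1 and 0.67 times the calls. The 34 genes of the families in the middle class had 3 calls against 14.8 expected from their own class, 0.20 (0.04 to 0.59), and the 25 in the high class had 0 against 6.65, with an upper limit of 0.55. The 9 in the low class had 2 against 4.33, 0.46 (0.06 to 1.67). The class was that of the gene's promoter with the most CpGs in the promoter table. Calls were counted at the outermost start, which can lie elsewhere, so CpG content of the counted windows was not matched. Within these limits, the density at starts was low against genes of the same class in the middle and high classes. Without the Hox genes the density at starts, against all genes, was 0.16 (0.03 to 0.48). The starts of 50 other homeobox genes had 11 calls against 19.8, 0.56 (0.28 to 0.99), those of 17 signalling genes 0 against 6.74, and those of 24 Polycomb subunits 11 against 9.51. The 37 genes without a known strand were compared at both ends together, where 15 calls stood against 14.4 expected in RS and 0 against 10.7 in M. The density at their starts alone was not analysed here.

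Gene length split the families unevenly. The 68 genes under 10 kb had relative densities of 0.48, 1.00 and 0.71 in RS at 0.5, 1 and 2 U and 0, 0.27 and 0.65 in M, against all genes of that length. The 27 genes from 10 to 50 kb had 0.90, 0.45 and 1.29 in RS and 0.60, 1.07 and 1.22 in M. The 10 genes of 50 kb or more had 0.96, 1.21 and 1.45 in RS and 0.63, 0.63 and 0.84 in M. The mean log2 ratio of RS over M was 1.47 (−0.10 to 3.05) in the short, −0.19 (−0.95 to 0.58) in the middle and 0.75 (0.13 to 1.37) in the long class. The long class alone had an interval without 0. In the middle class the ratios were 0.52, −1.16 and 0.07 at 0.5, 1 and 2 U, so its negative mean came from 1 U. The differences between classes were not tested.

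From 5 kb outwards, the DNA around the genes had fewer calls per bp than that around all genes, at larger counts than in the genes themselves from 20 kb on. Distances were to the nearest gene of a set, so zones around all genes leave out every protein-coding gene body. Those around the 105 genes leave out only these genes, so the zones compared are not alike. The zone from 20 to 100 kb outside the genes covered 9.55 Mb and held 552, 105 and 77 calls in RS and 81, 187 and 210 in M at 0.5, 1 and 2 U. Per bp this was 0.75 (0.69 to 0.81), 0.59 (0.48 to 0.72) and 0.67 (0.53 to 0.83) times the same zone of all genes in RS, and 0.45 (0.35 to 0.55), 0.70 (0.61 to 0.81) and 0.72 (0.63 to 0.82) times in M. All 6 intervals lay under 1, in both stages. The same zone around the other homeobox genes had 0.72, 0.78 and 0.65 in RS and 0.33, 0.61 and 0.69 in M, so the low density was not particular to the 12 families. The near zones showed no such common direction. From 1 to 5 kb the values of the families were 0.63, 0.36 and 1.93 in RS and 0.12, 0.70 and 0.82 in M, and the RS value at 2 U, from 13 calls, had an interval above 1 (1.03 to 3.30). Within 1 kb they were 0.82, 1.39 and 0.86 in RS and 0, 0.44 and 0.70 in M, on at most 11 calls. From 5 to 20 kb they were 0.78, 0.76 and 0.51 in RS and 0.37, 0.67 and 0.70 in M. In the bodies they were 0.82, 0.90 and 1.39 in RS and 0.52, 0.74 and 1.02 in M. In both lists at 2 U the value of the bodies thus lay above those of the zones from 5 kb outwards. Against the autosomal mean per bp, the zone from 20 to 100 kb had 0.79, 0.67 and 0.78 in RS. In M it had 0.52, 0.83 and 0.85, and the intervals of all 6 values lay under 1. On that scale the bodies at 2 U had 1.27 in RS and 0.87 in M, so in M they lay close to the 0.85 of this zone.

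**Figure D5:**
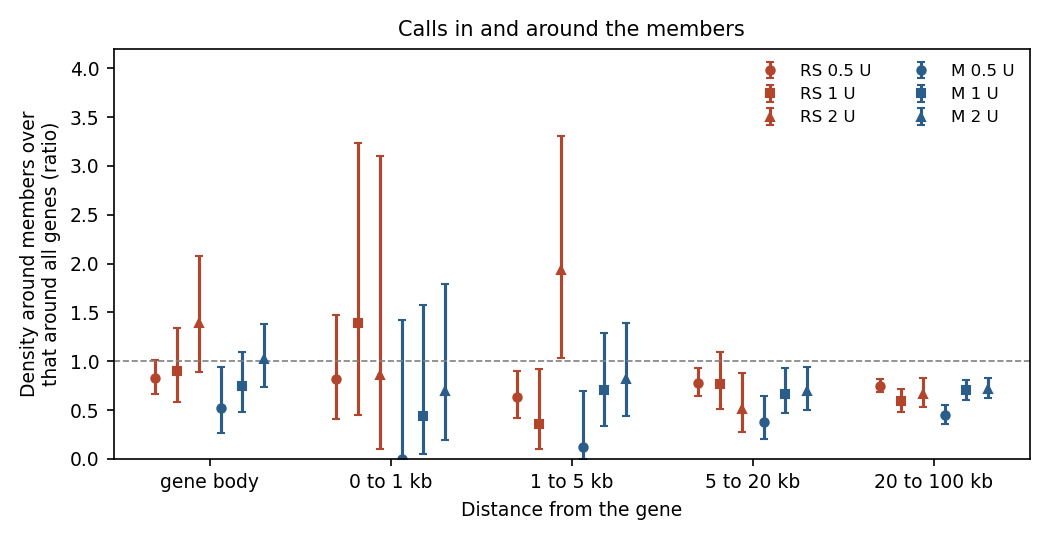
Calls per bp in and around the 105 genes over the same zone of all genes (ratio), by distance from the gene, for each list (RS in red left of M in blue, symbols for the MNase amount in U) with 95% counting intervals. From 20 to 100 kb all 6 values lie between 0.45 and 0.75. Zones around all genes leave out every protein-coding gene body, while those around the 105 genes leave out only these genes.

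Single positions rarely recurred in another list. The 243 calls formed 163 positions, of which 2 (1.23%) were within 73 bp of a position of another list, against 7.01% of 92222 positions in all genes. Both belonged to 1 pair in Hoxb7 (chr11:96285604-96290163), where 2 overlapping calls of M at 2 U and 1 call of RS at 0.5 U had midpoints 37 bp apart. Hoxb7, a factor of the trunk, had 1, 0 and 0 calls in RS and 0, 0 and 2 in M. Of the 243 calls, 178 (73.3%) were at the minimum of 6 implied reads, against 71.2% for all genes, 7 had 8 or more, and the highest, 1 in Gata4 and 1 in Hoxc4, both in RS at 0.5 U, had 9. No call of the families lay in the 10 kb bins in which a list piled up more than 20 calls. The shares for all genes include such bins, and the share of recurring positions without them was not computed.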

How the data were processed

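MNase-seq of 12 samples in 6 groups of 2 was analysed from 6 lists of 140 bp calls. The authors made each list from both samples of a group and deposited a p-value for every call, with no read counts. The aligner STAR (version 2.5.2a) and the build GRCm38/mm10 are as in the submitters' processing notes; the nucleosome caller is not given in the sources used here.

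Gene bodies came from a RefSeq table of this build without strand or exons. Strand came from a RefSeq promoter table (GRCm38.p6), which held 68 of the 105 genes; 37 were matched to no entry. The outermost start is the 5′ end of the gene body by that strand; the promoter table's own starts were an alternative. Reads implied by p-values come from the nearest Poisson tail. Relative densities have exact Poisson 95% intervals; log2 ratios add 0.5 to observed and expected calls and have normal intervals. Merged positions join overlapping calls of a list. No test was run, since each group is 1 list. Scripts used Python 3.11.15, numpy 2.4.6, pandas 2.3.3, scipy 1.17.1 and matplotlib 3.10.9, and were tested on simulated data. The simulated calls were far more numerous than the real ones and placed independently, so intervals at low counts or with overlapping calls were not tested.

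Named genes are the family member with most calls per 100000, any with calls in 3 or more lists, and the 4 with the largest and the 4 with the smallest difference between stages; Gata2, Gata3, Hoxc6, Hoxc8, Hoxc10, Hoxd8, Hoxd10, Hoxa10 and the genes named as having no call were added after their values were seen. A gene that the rule names is not reported here. The genes and lists were chosen with earlier results of these data known, and the analysis of starts was added after the data were seen. Lists of Leydig, spermatogonial, meiotic and round spermatid markers are reported with the closing observations.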

Additional observations from a re-analysis of the deposited data

Results flagged for a closer look

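The number of calls moved in opposite directions with the amount of MNase in the 2 stages. From 0.5 to 2 U the log2 change in the number of calls of the 105 genes was −2.01 in RS and 2.03 in M. It was −1.43 in RS and 2.12 in M for Pax, −0.85 in RS and 2.32 in M for Lhx, and −3.42 in RS and 1.26 in M for Tbx. The difference between the stages was not tested, since each value comes from 1 list per amount. The size of the whole lists moved in the same directions, 179133, 41655 and 27101 calls in RS at 0.5, 1 and 2 U and 42178, 60077 and 65614 in M. Relative to all genes, the density of the 105 genes at these amounts was 0.83, 0.98 and 1.35 in RS and 0.47, 0.72 and 1.00 in M.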

How the results depend on the processing

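Over 35 settings, 165 comparisons with the reported values were made; 159 stayed within the 95% interval of the reported value, or within 1.5 times a reported count of genes (113 for alternatives listed at the outset and 46 for added ones), and 6 did not. No value whose interval excluded 0 changed sign; the log2 ratio of RS over M at 1 U, whose interval included 0, was −0.24 with calls above the minimum of implied reads only. A window of 5000 bp gave 72 genes with a call in RS (68.6%, against 70.6% of all genes) and 45 in M (42.9%, against 51.5%). Using only calls above the minimum of implied reads left 21 genes in RS (20%, against 28.6% of all genes) and 14 in M (13.3%, against 18.8%), and a relative density of 0.69 in M at 2 U. The density at starts was 0.059 within 500 bp. The mean log2 ratio of RS over M lay between 0.34 and 0.96 over 27 settings, positive in all 27 with an interval above 0 in 20. The settings reuse the same lists, and 12 of them only left out 1 family. The cause of the other 7 was not tested. They include gene bodies without flanks, 0.45 (−0.02 to 0.91), and reference genes in the length range of the families, 0.40 (−0.05 to 0.85). They also include calls above the minimum of implied reads, 0.71 (−0.17 to 1.60), and merged calls, 0.48 (−0.05 to 1.01). The ratio of 2 over 0.5 U lay between 0.41 and 1.03 in RS (interval above 0 in 15 of 21 settings) and between 0.84 and 1.44 in M (14 of 21). No paired analysis was possible because each list joins both samples of a group, and for the same reason no replicate could be left out. The depth is unknown, and with most calls at the minimum of 6 reads a single call rests on 1 read more or fewer.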

Other observations

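The other 4 lists of cell type markers are given as values only. Leydig markers held 10 calls in RS and 3 in M, spermatogonial markers 49 in RS and 38 in M, meiotic markers 17 in RS and 2 in M, and round spermatid markers 5 in RS and 6 in M. In the same order of lists, the mean log2 ratios of RS over M were 1.01 (−0.93 to 2.96), −0.22 (−0.95 to 0.52), 0.86 (−1.46 to 3.18) and −0.53 (−2.74 to 1.69), so that all 4 intervals included 0.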
